A study of Homo sapiens with 4 samples.

Results

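The inhibitors of cyclin-dependent kinases (CDKs) were followed in BJ-TE cells, a line derived from human BJ foreskin fibroblasts, across 4 cultures with 1 expression array each. The members were the probe sets of the deposited table whose annotation names exactly 1 of 7 symbols: CDKN1A, CDKN1B, CDKN1C, CDKN2A, CDKN2B, CDKN2C and CDKN2D. This gave 13 probe sets among the 19064 that carry 1 symbol, in a table of 22277. CDKN1C had 5 of them, CDKN2A 3, CDKN2D 2, and CDKN1A, CDKN1B and CDKN2B 1 each, so 6 genes were represented; CDKN2C was not analysed here. The 4 groups were cells with a control hairpin labelled ns (ns shRNA) at 40% confluence, cells with a hairpin against the transcription factor p73 (p73 shRNA) at 40% confluence, and both kinds at 100% confluence. The title of the series concerns inhibition of malignant transformation by p73. All cultures share the BJ-TE background; the genes used to make the line, the vector of the hairpins and the time between the stages are not given in the sources used here. No group has a replicate. The labels read p73 shRNA, name no second hairpin for comparison and do not say whether 1 hairpin or a pool was used.

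CDK inhibitors slow the cell cycle by binding the kinases that drive it. The CIP/KIP proteins p21 (CDKN1A), p27 (CDKN1B) and p57 (CDKN1C) bind complexes of cyclins with CDKs, above all those of CDK2, and hold cells before DNA replication. The INK4 proteins p16 (CDKN2A), p15 (CDKN2B), p18 (CDKN2C) and p19 (CDKN2D) bind CDK4 and CDK6 in place of the D cyclins, which keeps the retinoblastoma protein active. CDKN1A is a textbook target of the p53 family, to which p73 belongs, and p27 is known to accumulate in fibroblasts that stop dividing on contact, largely through slower breakdown of the protein. CDKN2A also encodes ARF, a second protein read in another frame from a start site of its own.

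The stretches upstream of the transcription starts of the genes that gave a clear signal are shown first. They set out the motifs near the starts of the genes described. A probe set reads the transcripts it binds, so no value here can be assigned to 1 start site. RefSeq sequences on the GRCh38.p14 build were found for 6 of the 7 genes, with 9 start sites. Each line gives the 250 bases before a start, read 5′ to 3′ on the strand of the gene, with every GC box (GGGCGG or its complement on the other strand) in capitals. CDKN1A lies at chr6:36678464-36678713 on the plus strand and CDKN1B at chr12:12717118-12717367 on the plus strand. The CDKN2A starts lie on the minus strand, at chr9:21974858-21975107 for the p16 start and at chr9:21995325-21995574 for the ARF start.
CDKN1A: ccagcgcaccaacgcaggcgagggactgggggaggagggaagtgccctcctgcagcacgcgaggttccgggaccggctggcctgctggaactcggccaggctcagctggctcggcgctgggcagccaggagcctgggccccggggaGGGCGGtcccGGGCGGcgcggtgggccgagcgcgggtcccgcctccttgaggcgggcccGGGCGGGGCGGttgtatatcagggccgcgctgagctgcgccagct
CDKN1B: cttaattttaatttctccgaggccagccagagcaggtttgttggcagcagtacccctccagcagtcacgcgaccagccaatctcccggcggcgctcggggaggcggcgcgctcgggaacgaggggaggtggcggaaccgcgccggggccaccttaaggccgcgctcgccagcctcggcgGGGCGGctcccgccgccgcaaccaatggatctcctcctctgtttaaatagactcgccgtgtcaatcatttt
CDKN2A, p16 start: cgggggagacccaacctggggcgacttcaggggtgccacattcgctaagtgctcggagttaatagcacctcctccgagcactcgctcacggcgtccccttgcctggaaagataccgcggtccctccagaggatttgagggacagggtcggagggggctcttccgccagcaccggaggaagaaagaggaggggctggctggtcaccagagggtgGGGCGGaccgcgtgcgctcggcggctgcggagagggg
CDKN2A, ARF start: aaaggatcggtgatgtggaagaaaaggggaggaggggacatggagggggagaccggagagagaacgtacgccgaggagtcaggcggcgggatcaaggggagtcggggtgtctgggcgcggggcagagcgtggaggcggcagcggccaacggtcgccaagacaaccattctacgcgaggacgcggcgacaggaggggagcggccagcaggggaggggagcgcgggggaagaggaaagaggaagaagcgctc
CDKN1A held 4 GC boxes, of which 2 overlap, and the last ended 34 bases before its start. CDKN1B and the p16 start of CDKN2A held 1 each, and the ARF start held 0. The motif was present in 42.6% of 35116 windows of the same length before starts of all genes, so its presence is common. A CCAAT box (CCAAT, either strand) was found 2 times at CDKN1B, and 32.0% of all windows hold it. The E-box CACGTG (6.34% of all windows), the forkhead motif GTAAACA on either strand (2.98%) and the p53 family decamer (5.57%) were not found in these 4 windows, which says only that these letters are not in them.

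The arrays were similar in overall signal. Median intensity lay between 105 and 122, and the GAPDH controls, read at the 3′ and the 5′ end of the transcript, had ratios between 0.93 and 1.02. The beta-actin controls gave a 3′ to 5′ ratio of 1.24 and 1.09 on the arrays of sparse cells (ns first) and of 1.47 and 1.38 on those of confluent cells. All 16 fibroblast markers examined were above the brightness filter described below, against 3 of 13 measured epithelial, 2 of 8 endothelial, 1 of 7 blood, 1 of 5 melanocyte and 5 of 9 smooth muscle and pericyte markers. The probe set of TP73, the gene targeted by the hairpin, read 1.68 (ns) and 2.09 (p73 shRNA) at 40% and 1.65 and 2.04 at 100%, which is at the floor of the arrays and gives no check on the hairpin.

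Across the 4 arrays the inhibitors divided into 3 genes with clear signal and 3 without. CDKN1A, CDKN1B and CDKN2A were above the brightness filter, a mean log2(intensity + 11.6) of at least 6.94, which corresponds to an intensity of about 111. CDKN1C, CDKN2B and CDKN2D were below it on every probe set. By probe set, 4 of 13 were above and 9 below, and 7 of the 13 never reached an intensity of 30 on any array.

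**Figure D1:**
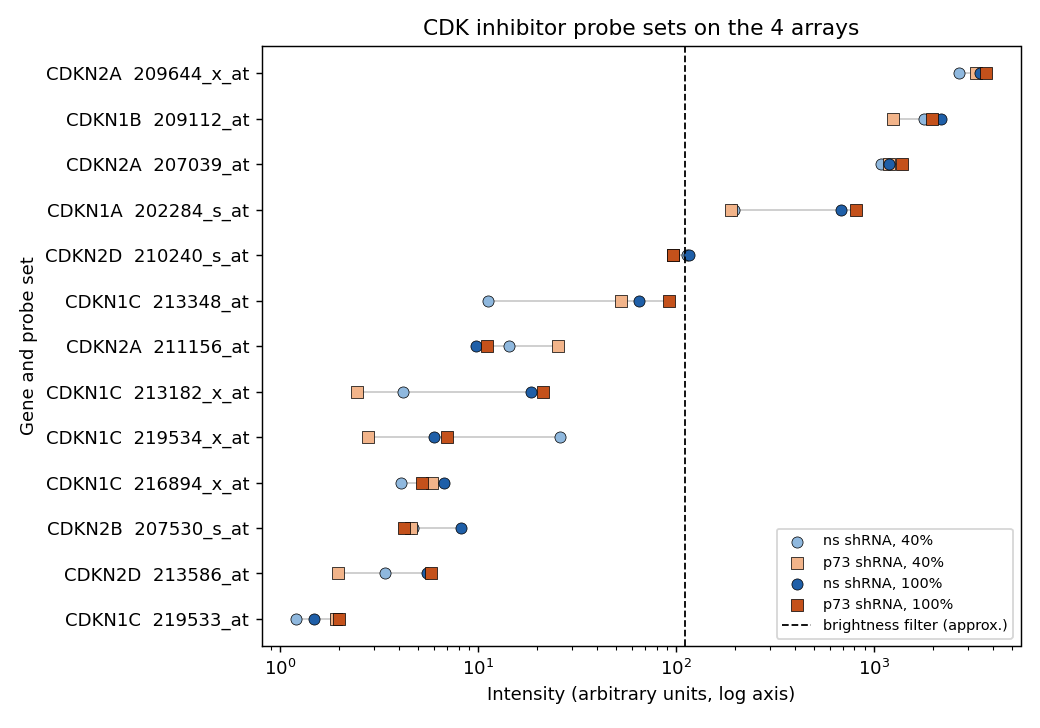
Intensity (arbitrary units, log axis) of the 13 CDK inhibitor probe sets on the 4 arrays; circles are ns shRNA, squares p73 shRNA, light symbols 40% and dark symbols 100% confluence, and the dashed line marks an intensity of about 111, the brightness filter. CDKN1A separates by stage, from 191 and 197 to 681 and 813, and 4 probe sets of 3 genes lie to the right of the line on every array. Positions of different probe sets cannot be set against each other.

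CDKN1A, which encodes p21, had the largest average change with confluence of the 3 inhibitors above the filter. Its intensity was 197 with ns shRNA and 191 with p73 shRNA at 40% confluence, and 681 and 813 at 100%. Both arrays of confluent cells lay above both arrays of sparse cells, a pattern that 33.7% of the 6759 genes tested showed. The linear ratio of 100% to 40% was 3.46 with ns shRNA and 4.26 with p73 shRNA. On the log2 scale CDKN1A was higher by 1.73 and 2.03, an average of 1.88 (SE 0.20, limma adjusted p 1.66e-18), or 3.68-fold with a 95% interval of 2.79 to 4.84. This placed it at rank 54 of 6759 genes by average rise, and 3.23% of the genes were at least 2-fold higher with both hairpins. Its rise passed the test in all 8 alternatives that kept the gene above their filter, with limma adjusted p from 1.34e-18 to 0.000557. The beta-actin 3′ to 5′ ratio was also higher on both arrays of confluent cells, and its part in this result was not tested. A change in the share of cells that hold an RNA and a change in its amount per cell cannot be told apart in RNA of a whole culture.

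CDKN1B, which encodes p27, rose less. Its intensity was 1804 (ns) and 1254 (p73 shRNA) at 40% and 2201 and 1967 at 100%. Here too both arrays at 100% lay above both at 40%, by the narrow step from 1804 to 1967. The log2 ratio was 0.29 with ns shRNA and 0.64 with p73 shRNA, an average of 0.46 (SE 0.15, limma adjusted p 0.00837), or 1.38-fold with a 95% interval of 1.12 to 1.69. The call was lost without the intensity trend (limma adjusted p 0.0597), without the brightness filter (limma adjusted p 0.0536) and with the hairpin left out of the model (limma adjusted p 0.113).

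CDKN2A did not pass the test. Its brightest probe set, of the kind that Affymetrix marks as able to bind related transcripts, gave 2684 (ns) and 3301 (p73 shRNA) at 40% and 3458 and 3696 at 100%. The array with ns shRNA at 40% was the lowest and the other 3 lay within 3301 to 3696. The log2 ratio of 100% to 40% was 0.36 with ns shRNA and 0.16 with p73 shRNA, averaging 0.26 (SE 0.14, limma adjusted p 0.136), with a 95% interval of -0.02 to 0.54. A second bright probe set gave 1093 and 1201 at 40% and 1191 and 1393 at 100%, with ratios of 0.12 and 0.21 (limma adjusted p 0.429 when every probe set is tested). The third CDKN2A probe set was dim, at 9.80 to 25.6, and averaging it with the others turned the mean change to -0.02. On this dim probe set the ratios of 100% to 40% were -0.28 with ns shRNA and -0.71 with p73 shRNA. The sources used here do not pair these probe sets with p16 or ARF transcripts. A value may therefore stand for p16, for ARF or for both.

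With 2 of the 3 tested inhibitors called higher at confluence, the share has to be read against 36.6% of all genes called in either direction, the 20.4% of all 6759 genes called higher and the 16.1% called lower. Of the 3, all had the same direction with both hairpins, as did 76.2% of all genes tested.

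**Figure D2:**
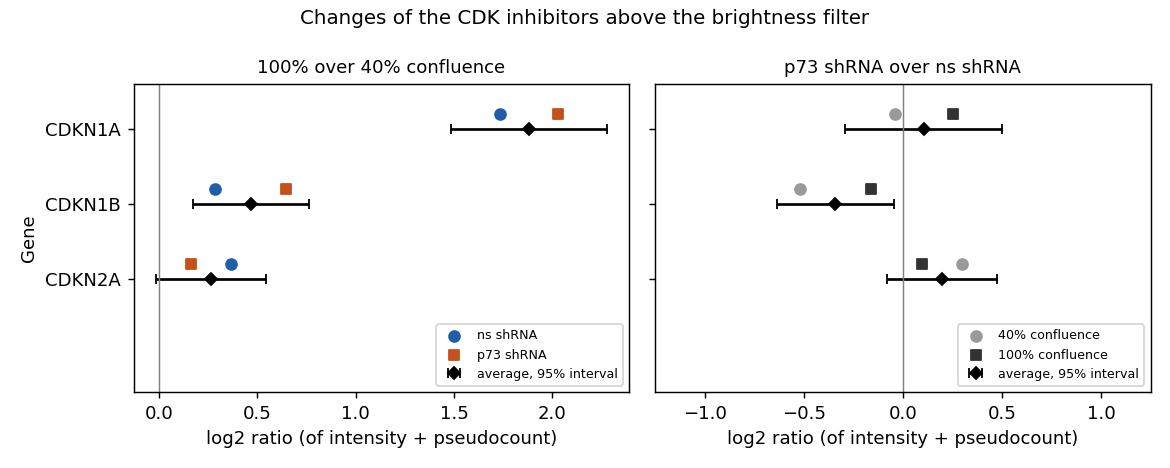
Log2 ratios of the 3 inhibitors above the brightness filter, for 100% over 40% confluence (left) and p73 shRNA over ns shRNA (right); coloured or grey points are the ratios of 2 arrays and diamonds the average with its 95% interval from limma. The confluence interval of CDKN1A, around 1.88, lies far from 0, that of CDKN1B around 0.46 lies above it, and that of CDKN2A reaches -0.02.

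The p73 hairpin changed none of the 3 inhibitors by the test (limma, Benjamini-Hochberg adjusted p below 0.05), a call that 2.72% of the 6759 genes received. CDKN1A differed by -0.04 at 40% and 0.25 at 100% confluence, an average of 0.11 (SE 0.20, limma adjusted p 0.896) whose 95% interval runs from 0.82-fold to 1.42-fold. CDKN1B was lower with p73 shRNA at both stages, by -0.52 and -0.16, averaging -0.34 (SE 0.15, limma adjusted p 0.254) with an interval of 0.64-fold to 0.97-fold. CDKN2A differed by 0.30 and 0.10 on its brightest probe set and by 0.13 and 0.22 on the second, with an average of 0.20 on the first (SE 0.14, limma adjusted p 0.611; interval 0.94-fold to 1.39-fold). The ratios of CDKN1B and CDKN2A had the same direction at both stages, as did those of 58.5% of the genes tested. Unadjusted, CDKN1B had a limma p of 0.0236, and 922 of the 6759 genes had an unadjusted p below 0.05. The intervals take the spread at a given brightness as known and are not adjusted for the number of genes. A p that misses the threshold does not show that the levels were equal.

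The remaining inhibitors gave little or no signal. CDKN2D, which encodes p19, lay just under the filter on its brighter probe set, with 115 (ns) and 96.9 (p73 shRNA) at 40% and 116 and 97.3 at 100%. The values repeated between stages, with a confluence ratio of 0.02 with ns shRNA and 0.01 with p73 shRNA, and were lower with p73 shRNA by -0.22 and -0.23. Without the brightness filter neither passed (limma adjusted p 0.989 for confluence and 0.912 for p73 shRNA). Its second probe set stayed between 1.97 and 5.78.

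CDKN1C, which encodes p57, an imprinted gene active in development, had 1 probe set of 5 with intermediate signal. This read 11.3 with ns shRNA at 40%, 52.99 with p73 shRNA at 40%, and 64.9 and 92.7 at 100%. The ns shRNA array at 40% was the low one, and the other 3 were higher. Without the brightness filter the average change was 1.22 with confluence (SE 0.48, limma adjusted p 0.136) and 0.97 with p73 shRNA (SE 0.48, limma adjusted p 0.605), and neither passed. The other 4 CDKN1C probe sets did not bear this pattern out in full. The first read 4.18 (ns) and 2.46 (p73 shRNA) at 40% and 18.5 and 21.4 at 100%, another was highest with ns shRNA at 40% at 26.1 and between 2.78 and 6.98 elsewhere, and the last pair stayed between 1.21 and 6.74. CDKN2B, which encodes p15 and is known as a target of transforming growth factor beta, read 4.73, 4.62, 8.25 and 4.23 in the order ns and p73 shRNA at 40%, then ns and p73 shRNA at 100%. These values are at the floor and give no fold change. MTAP, an enzyme gene next to CDKN2A and CDKN2B, was measurable, with 202 and 180 at 40% and 188 and 171 at 100% on its brightest probe set, and did not pass either test (limma adjusted p 0.833 for confluence and 0.887 for p73 shRNA). A second MTAP probe set, just above the filter, was lower with p73 shRNA by -0.72 and -0.58. It was not called either (limma adjusted p 0.307 when every probe set is tested).

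The kinases and cyclins that the inhibitors act on were examined as a list. Like the other lists, it was drawn up with earlier results of these data known, so its direction is not independent evidence. Of 19 cyclins, CDKs and their direct regulators above the filter, 2 rose at confluence, 6 fell and 11 did not pass; over all genes tested 20.4% were called higher and 16.1% lower. The median change was -0.25 with ns shRNA and -0.21 with p73 shRNA, against 0.01 and 0.02 over all genes tested. CCND1, cyclin D1, the partner of CDK4 and CDK6, fell most, from 1853 (ns) and 934 (p73 shRNA) to 533 and 360, an average of -1.56 (SE 0.17, limma adjusted p 7.87e-18). The other D cyclin named by the rule, CCND3, fell too, with ratios of -0.78 and -1.07, from 1043 and 1518 to 601 and 719. CDC25A, the phosphatase that activates CDK2, read 499 and 359 at 40% and 175 and 143 at 100%, and fell on this probe set; its second probe set, near the filter, differed by 0.04 and -0.54 and was not called. CDC25C, a phosphatase acting at entry into mitosis, rose by 1.15 and 0.39. Among the kinases, CDK1, which drives entry into mitosis, was called higher on an average of 0.45 (limma adjusted p 0.00568) that came from ns shRNA alone, with ratios of 0.93 and -0.02; it was not called without the intensity trend or with the mean of probe sets. CDK4 fell, with ratios of -0.33 and -0.56 (limma adjusted p 0.00595; the call did not hold without the intensity trend), and CDK2 differed by 0.39 and 0.29 (limma adjusted p 0.076). The E cyclins CCNE1 (-0.06 and -0.43) and CCNE2 (-0.25 and -0.01) did not pass. CDK6 was below the filter, at 107 and 43.6 at 40% and 40.8 and 77.9 at 100%. Without the intensity trend 1 gene of this list was called higher and 4 lower.

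The retinoblastoma family lies downstream of the inhibitors. Of 11 pocket proteins, E2F factors and partners above the filter, 2 rose at confluence, RBL2 and RB1, and 2 fell, the E2F partner TFDP1 and E2F4, so neither share stands apart from the 20.4% higher and 16.1% lower over all genes. RBL2 encodes p130, the pocket protein that holds cell cycle genes silent in resting cells. Its intensity was 509 (ns) and 409 (p73 shRNA) at 40% and 864 and 948 at 100%, an average rise of 0.97 (SE 0.18, limma adjusted p 7.32e-07), and its second probe set was higher too, by 1.85 and 0.72. RB1 rose by 0.21 and 0.70 (limma adjusted p 0.0205). It did not pass once the intensity trend was dropped (limma adjusted p 0.0708), nor with the mean of probe sets (limma adjusted p 0.158). RBL1 (p107), E2F8 and TFDP2 were higher by an average of 0.48 to 0.52 and did not pass. Without the intensity trend 4 genes of the list were called higher and 0 lower.

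Of 16 genes above the filter that take part in breakdown of the inhibitors, 1 rose and 4 fell at confluence, with median changes of -0.19 and -0.09. The 5 called are fewer than the 36.6% called in either direction over all genes would give, and so are no result about this machinery as a group. PSME3, a proteasome activator subunit known for breakdown of p21 without ubiquitin, read 2498 and 2809 at 40% and 997 and 1400 at 100%, and fell, with an average of -1.16 (SE 0.15, limma adjusted p 7.32e-13). All 4 of its probe sets were lower with both hairpins. SKP2, the ubiquitin ligase subunit that recognises p27, read 3446 and 3043 at 40% and 2441 and 2553 at 100%; it fell, with ratios of -0.50 and -0.25 (limma adjusted p 0.0291). Both other SKP2 probe sets were lower as well, by -1.03 and -0.52 and by -0.66 and -1.41, although the brightest was not called after quantile normalization, nor without the intensity trend. CKS1B, the cofactor of SKP2, differed by -0.20 and -0.29 and did not pass (limma adjusted p 0.158). CKS2, the paralogue of CKS1B, and CDC20, an activator of the anaphase-promoting complex, fell, with averages of -0.45 and -0.72. DDB1, an adaptor of the CUL4 ligase, was called higher on an average of 0.43 that came from ns shRNA alone, with ratios of 0.86 and -0.00. Without the intensity trend 0 were called higher and 2 lower.

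With the p73 hairpin 1 gene of each of these 3 lists fell, namely CCND1, RB1 and CUL4A, and none rose, where 1.58% of all genes were called lower and 1.14% higher. CCND1 had ratios of -0.98 in sparse and -0.55 in confluent cells, averaging -0.77 (SE 0.17, limma adjusted p 0.0012), and its second probe set, with ratios of -0.38 and -0.27, was not called (limma adjusted p 0.443). RB1 read 1065 (ns) against 576 (p73 shRNA) at 40% and 1234 against 943 at 100%, ratios of -0.87 and -0.38 (limma adjusted p 0.00945). Its second probe set, below the filter, had ratios of -0.42 and 0.17. CUL4A, the scaffold of a ubiquitin ligase that acts on p21, was lower by -1.08 and -0.27 (limma adjusted p 0.00941), but its second probe set was higher by 0.23 and 0.25, so the probe sets of CUL4A disagree. All 3 calls were lost without the intensity trend. They were also lost with the mean of probe sets (limma adjusted p 0.128 for CCND1, 0.464 for RB1 and 0.617 for CUL4A).

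**Figure D3:**
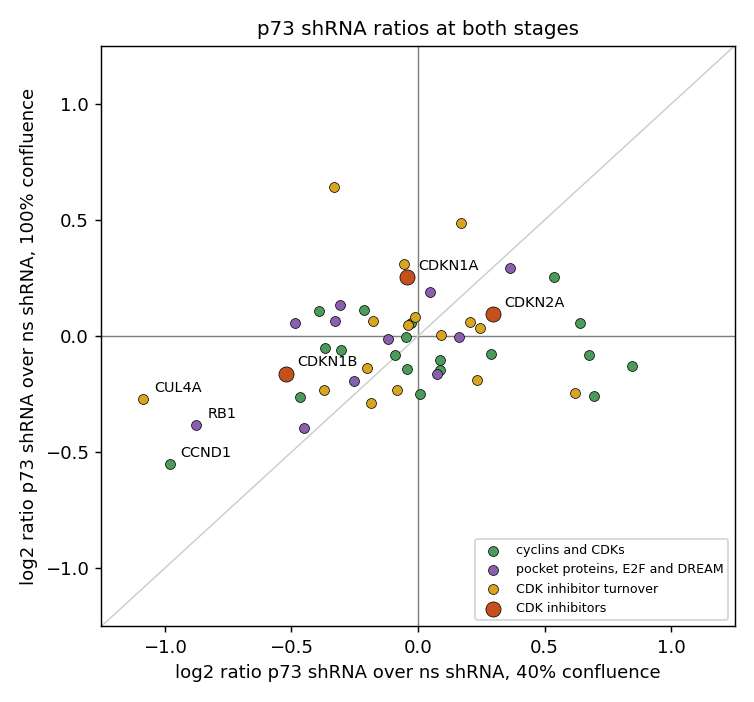
Log2 ratio of p73 shRNA over ns shRNA at 40% (x axis) and at 100% confluence (y axis) for the inhibitors (large points) and for genes of the cyclin and CDK, pocket protein and turnover lists; the diagonal marks equal ratios. CDKN1A (-0.04 and 0.25), CDKN1B (-0.52 and -0.16) and CDKN2A (0.30 and 0.10) lie inside the cloud of their pathway, and CCND1, RB1 and CUL4A are the points that passed the test.

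Of 33 upstream regulators of the inhibitor genes above the filter, 7 rose at confluence, 5 fell and 21 did not pass. These shares are near the 20.4% called higher and 16.1% called lower over all genes, so the counts say nothing particular to the regulators. With p73 shRNA 0 passed in limma, where 2.72% of all genes did, and 5 had an unadjusted p below 0.05. ID1, a repressor of basic helix-loop-helix factors and of CDKN2A transcription, fell from 10568 and 10523 to 1019 and 933. The factors MXI1, an antagonist of MYC, CEBPD, a C/EBP factor linked to growth arrest, and KLF4, an activator of CDKN1A, rose: MXI1 by 2.45 and 2.86, CEBPD by 2.45 and 2.44, and KLF4 by 1.67 and 1.69, with its intensity going from 238 and 247 to 782 and 825. KLF6, another factor of this list, fell from 1309 and 1413 to 657 and 609, with ratios of -0.98 and -1.20 (limma adjusted p 1.23e-09). MYC was called lower too, with ratios of -0.66 and -0.10 (limma adjusted p 0.0481). The MYC call was lost after quantile normalization (limma adjusted p 0.0576) and without the intensity trend (limma adjusted p 0.134). No test links these changes to the inhibitors, and none was run.

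Other targets of the p53 family did not all follow CDKN1A. Of 16 above the filter, not counting CDKN1A, 6 rose and 4 fell at confluence, beside 20.4% and 16.1% over all 6759 genes. With p73 shRNA 0 passed in limma and 2 had an unadjusted p below 0.05, where 2.72% of all genes passed, so a count of 0 in a list this short says little. DDB2, a DNA repair factor, read 144 (ns) and 199 (p73 shRNA) at 40% and 387 and 536 at 100%, and GDF15, a secreted stress factor, rose by 1.14 and 1.87. With p73 shRNA DDB2 was higher by 0.44 and 0.46 (limma adjusted p 0.347). GDF15 was lower by -1.22 and -0.50 (limma adjusted p 0.0772), and was called without the intensity trend (limma adjusted p 0.0416). Its values rest on 1 probe set close to the filter, and its other probe set was at the floor. The arrest gene GADD45A fell from 3369 and 3018 to 965 and 1039, and the exonuclease AEN fell, with an average of -1.04. Genes linked with growth arrest mostly rose: 11 of 13 were higher, 1 fell and 1 did not pass, with medians of 1.30 and 1.14, where 20.4% of all genes were called higher. The list was drawn up with earlier results of these data known, so its direction is not independent evidence. The atypical cyclin CCNG2 (average 3.07), the mTOR inhibitor DDIT4 (3.08) and PNRC1 (2.96) led this list together with MXI1. The number called higher was 11 as well after quantile normalization, and again without the intensity trend.

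Among the genes whose expression follows the cell cycle, few of those for DNA replication were called at confluence, and mitotic genes were called in both directions. Of 29 genes of G1/S and DNA replication 0 rose in limma (3 were higher at an unadjusted p below 0.05), 4 fell and 25 did not pass, with medians of -0.01 and -0.05, against 20.4% and 16.1% called higher and lower over all genes. The 4 were MCM10, CDC45, CDC6 and RRM2, with averages from -0.53 to -0.36; after quantile normalization 3 were called higher and 3 lower, and without the intensity trend 0 and 1. PCNA, the replication clamp that p21 binds, read 4832 and 4405 at 40% and 5575 and 5522 at 100% and did not pass (average 0.27, limma adjusted p 0.12); after quantile normalization it was among the 3 called higher (limma adjusted p 0.035). Of 24 mitotic genes 4 rose and 5 fell, with medians of -0.09 and 0.15. The mitotic kinase PLK1 (-0.78 and -0.30) and the spindle factor TPX2 (-0.51 and -0.48) fell while the topoisomerase TOP2A (0.40 and 0.58) rose; without the intensity trend 1 was called higher and 3 lower. With p73 shRNA 1 of the 29 replication genes fell, the licensing inhibitor GMNN (-0.77 and -0.35, limma adjusted p 0.00815), and so did PNRC1 of the growth arrest list (-0.66 and -0.56, limma adjusted p 0.0398); neither passed without the intensity trend. Of the 24 mitotic genes 0 passed with p73 shRNA in limma, with 1 at an unadjusted p below 0.05.

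**Figure D4:**
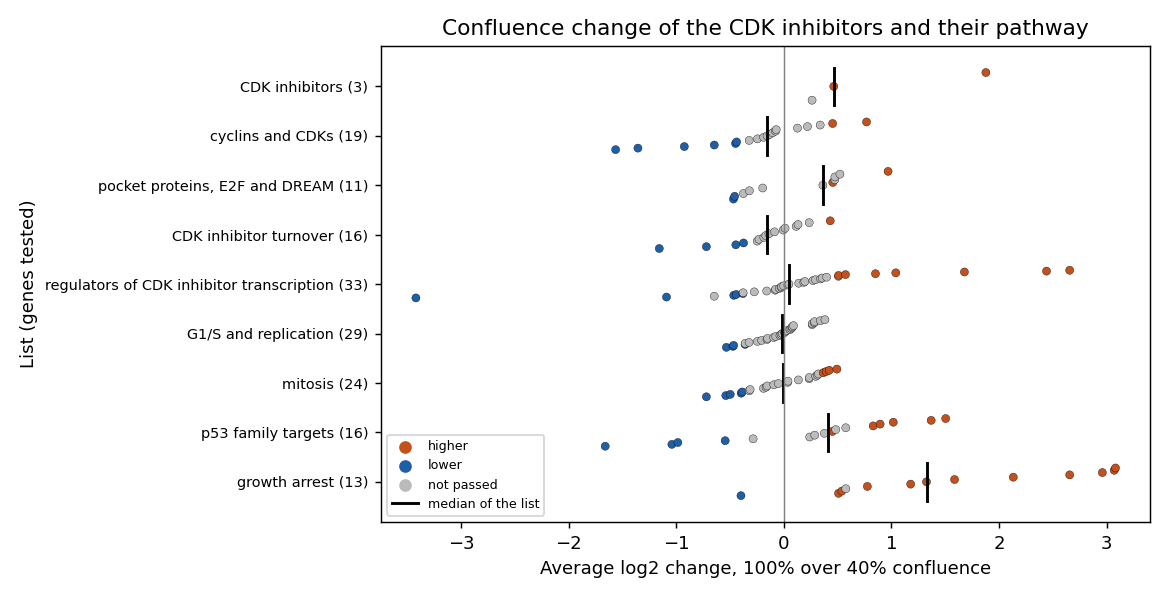
Average log2 change of 100% over 40% confluence for each gene above the brightness filter in the inhibitor list and in 8 lists of its pathway, with the number of genes in brackets; orange points were called higher, blue lower, grey not called, and bars mark list medians. CDKN1A is the point at 1.88 in the top row; the growth arrest row lies mostly to the right, and the replication and mitosis rows centre near 0.

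The genes most like each inhibitor were found by the Euclidean distance between log2 values centred on their mean, over 4 arrays and 6759 genes. Nearest to CDKN1A were TNFAIP6, a hyaluronan-binding protein induced in inflammation (distance 0.089), INSIG1, a regulator of cholesterol synthesis (0.178), and the cytokine IL1B (0.183). TNFAIP6 read 152 (ns) and 161 (p73 shRNA) at 40% and 546 and 664 at 100%, ratios of 1.77 and 1.96. The nearest to CDKN1B were ZNF43 (0.0387), SYF2 (0.0495) and EML3 (0.0556), and to CDKN2A EFR3A (0.0328), GNAS (0.0374) and NCAPD2 (0.038). With 4 arrays such likeness is a description, and genes of small change are close to many others.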

How the data were processed

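Trizol-extracted total RNA of BJ-TE cells was biotin-labelled and run on Affymetrix arrays by the maker's protocol, per the labels. The deposited table gives 1 linear intensity per probe set and array; no source used here names the software behind it. From the values, the authors' intensities share a trimmed mean of 500.1 to 500.2 (2% off either end), so a change common to most signal cannot be seen. Groups come from the sample titles, with 1 array each, and whether cultures were set up separately is not stated. With no replicate, the spread behind the p-values is how far the ratios of a factor differ between levels of the other. It mixes differences between arrays, between cultures and of the hairpin ratio between stages, and cannot tell them apart.

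Of 22277 probe sets, 62 controls, 1043 with several symbols and 2108 that were not listed were left unnamed; Entrez IDs gave current symbols for 19052 of 19064 single-symbol probe sets. Values became log2(intensity + 11.6), the 20th percentile of all values, which understates ratios of dim genes. A gene took its probe set of highest mean, and 6759 of 11963 genes had that mean at or above the median of all probe sets. An additive model of confluence and shRNA (limma 3.58.1 in R 4.3.3, intensity trend, two-sided, Benjamini-Hochberg over 6759 genes, threshold 0.05) has 1 residual degree of freedom and infinite prior degrees of freedom, so errors come from genes of like brightness. Ratios of 2 arrays have no test. Data were simulated for the p73 shRNA comparison with 6759 genes. With equal spread the model recovered 34.2% of changes of 1.5-fold, 79.7% at 2-fold and 100% at 4-fold, and 3.45% of calls were false. With unequal spread 1.56%, 52.1% and 90.8% were recovered and 5.83% were false. The simulated data were additive, with independent normal noise scaled to the intensity trend. These shares are therefore not error rates of the real calls.

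The members and lists were chosen with earlier results of these data known. Named are all members, up to 4 genes of each list by confluence change, genes of the cyclin, pocket protein and turnover lists called with p73 shRNA, 11 preset genes and the 3 nearest genes of each member; CDK1, TFDP1, E2F4, RRM2 and GMNN complete small counts and were added with their values known. KLF6 and MYC were also added with their values known. Alternatives were quantile normalization, other pseudocounts and filters, the mean of probe sets, a test of every probe set, no intensity trend, and a model without the other factor. Figures used matplotlib 3.10.9.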

Additional observations from a re-analysis of the deposited data

Results flagged for a closer look

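CDKN1A drew attention because its p73 shRNA ratio had opposite directions at the 2 stages, -0.04 at 40% and 0.25 at 100% confluence. The log2 ratios differ by 0.29, a difference that was not tested, and the first is close to 0. DDB1, called higher at confluence, had ratios of 0.86 with ns shRNA and -0.00 with p73 shRNA, a difference of -0.87 that was not tested either.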

How the results depend on the processing

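Of the alternatives to the member changes, those of CDKN1A and the p73 shRNA changes of CDKN1B and CDKN2A kept their direction and their side of the threshold in all settings that could be run; CDKN1A was below the filter at the 70th percentile. The confluence change of CDKN1B stayed at 0.46 and was not called without the brightness filter, without the intensity trend or without the other factor (limma adjusted p 0.0536 to 0.113). With the mean of probe sets the confluence change of CDKN2A turned to -0.021 and its ratios to 0.068 (ns) and -0.11 (p73 shRNA), where a dim probe set enters the mean. Among genes that are no members, p73 shRNA changes that were not called turned sign with the mean of probe sets for RBL2 (0.077), KLF4 (-0.022), CCNG2 (0.041) and SKP2 (0.037), and after quantile normalization for TPX2 (-0.015).

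Genes called with confluence numbered 1555 without the brightness filter (912 higher, 643 lower) and 1345 without the other factor (767 and 578), and 872 were higher with the filter at the 70th percentile, which tests fewer genes, against 2471 (1382 and 1089). With p73 shRNA they numbered 105 after quantile normalization (46 and 59), 40 when probe sets were averaged (17 and 23), 74 with no intensity trend (26 and 48), 4 with no filter (1 and 3) and 0 without the other factor in limma (0 and 0; 58 had an unadjusted p below 0.05), against 184 (77 and 107). The cause of these shifts was not tested. Replicates could not be paired across groups because each group has 1 array and the labels give no replicate numbers. The main model did compare confluence within each hairpin and shRNA within each stage, which the model without the other factor does not. Signal over background limits what is seen: CDKN1C, CDKN2B and CDKN2D are not shown to be absent or unchanged.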
